A study of Arabidopsis thaliana with 4 samples.

Results

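The tails described here are mRNA 3′ ends whose poly(A) tract was followed by 3 or more uridines and by no other nucleotide. They were chosen by the sequence and the length of the deposited extension, with at least 3 added nucleotides, all of them T in the DNA read and therefore U in the RNA. This rule found 2507 of 89792 tails in the table. A further 4274 tails ended in exactly 2 U, just outside the rule, and 3988 ended in exactly 1 U. The U number of the chosen tails and their share in each library therefore come from the choice itself and are given as description, with no test. The length of the A tract and the locus were not used by the rule.

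In plants, as in other eukaryotes, poly(A) tails shorten in the cytoplasm, and a short A tract can be extended with uridines by a terminal uridylyltransferase. URT1 is the main enzyme of this kind for Arabidopsis mRNA. XRN4 is the cytoplasmic exoribonuclease that degrades decapped mRNA from its 5′ end. U additions are known as a mark of deadenylated mRNA, and URT1 is also known to lengthen such ends so that poly(A)-binding protein can bind them.

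The 3′ ends came from whole seedlings of Arabidopsis thaliana at 2 weeks of age, grown on soil in cycles of 16 h light and 8 h dark. They were read by TAIL-seq, in which an adapter joined to the RNA's 3′ end lets the tail be sequenced with anything added to it. The 4 libraries, each of 1 genotype, were the wild type in the Col0 ecotype (WT), the single mutant urt1-1 (line Salk_087647C, here urt1), the single mutant xrn4-3 (line SALK_014209, here xrn4), and the double mutant carrying urt1-1 and xrn4-3 (here urt1 xrn4). Each mutant was represented by a single allele, and the labels do not say how many plants went into a library.

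The table held 10304 tails of WT, 43391 of urt1, 9797 of xrn4 and 26300 of urt1 xrn4, all with an A tract of 4 to 30 nt. With 1 library per genotype, no difference has a replicate check, no p-value is given, and all intervals are 95% intervals that cover counting error only. Reads carry no molecular identifiers, so identical tails of a locus may be copies of 1 molecule. Counting each combination of locus, A length and extension once left 286, 88, 432 and 310 distinct tails with 3 or more U in WT, urt1, xrn4 and urt1 xrn4, which is 46.3%, 54.7%, 35.4% and 61.3% of the tails chosen. Values for distinct tails are given beside the main shares and ratios. Where none is given, every tail was counted, and the value may change with identical tails counted once.

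The tails themselves are shown because the contrast between the libraries lies in the number of letters of each kind. Lower-case letters are the A tract and capitals are the added uridines, written as T as in the DNA read. The first 4 sequences are the pairs of A length and U number found most often in each library, and the next 4 are the tails with the most U.
WT, most frequent: aaaaaaaaaaaTTT
urt1, most frequent: aaaaTTT
xrn4, most frequent: aaaaaaaaaaaaTTT
urt1 xrn4, most frequent: aaaaTTT
WT, most U: aaaaTTTTTTTTTT
urt1, most U: aaaaTTTTTTT
xrn4, most U: aaaaTTTTTTTTTTTTTTTTTT
urt1 xrn4, most U: aaaaaaaaaaaaTTTTTTTTTTT

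The most frequent WT form, 11 A and 3 U, was found in 63 tails of 25 loci. The most frequent xrn4 form had 12 A and 3 U and was found in 95 tails of 28 loci. In both libraries with the urt1-1 allele the most frequent form had only 4 A, the shortest tract in the table, with 19 tails of 9 loci in urt1 and 41 tails of 14 loci in urt1 xrn4. The tails with the most U had 10 U in WT and 18 U in xrn4, against 7 U in urt1 and 11 U in urt1 xrn4.

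Tails with 3 or more U were most frequent in xrn4 and rarest in urt1. WT had 618 of them, urt1 161, xrn4 1222 and urt1 xrn4 506. As a share of all tails this was 5.998% in WT (interval 5.55 to 6.47%), 0.371% in urt1 (0.316 to 0.433%), 12.5% in xrn4 (11.8 to 13.1%) and 1.92% in urt1 xrn4 (1.76 to 2.10%). None of these 4 intervals overlapped. The share was 16.2-fold lower in urt1 than in WT and 2.08-fold higher in xrn4 than in WT. In urt1 xrn4 it was 6.48-fold lower than in xrn4, 3.12-fold lower than in WT and 5.19-fold higher than in urt1. The comparisons with WT share its 1 library, and those with urt1 xrn4 share that library.

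A field of the read identifiers, taken here as the sequencing lane, split the tails of each library into 2 parts, which are not replicates. In lanes 1 and 2 the share was 6.07% and 5.93% for WT, 0.379% and 0.364% for urt1, 12.7% and 12.3% for xrn4, and 1.97% and 1.88% for urt1 xrn4. The order of the libraries was the same in both lanes. Among distinct tails the shares were 4.33%, 0.430%, 7.51% and 2.36% in WT, urt1, xrn4 and urt1 xrn4, in the same order. With identical tails counted once, the share in urt1 was 10.1-fold lower than in WT and that in xrn4 was 1.74-fold higher. The share in urt1 xrn4 was then 3.19-fold lower than in xrn4, 1.84-fold lower than in WT and 5.48-fold higher than in urt1.

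A second share asks how often an extension made of U only reached 3 U once it was present. It was 21.8% of 2841 such tails in WT (20.2 to 23.3%), 7.63% of 2110 in urt1 (6.53 to 8.85%), 37.7% of 3243 in xrn4 (36.0 to 39.4%) and 19.7% of 2575 in urt1 xrn4 (18.1 to 21.2%). The xrn4 value lay 15.9 percentage points above WT (13.7 to 18.2). The urt1 xrn4 value lay 12.02 points above urt1 (10.1 to 13.9). Taken against xrn4 it differed by -18.0 points (-20.3 to -15.7). For urt1 xrn4 against WT the difference was -2.10 points with an interval from -4.26 to 0.061, so the order of these libraries was not resolved. It depended on the setting. The difference was 0.804 points among distinct tails (-1.94 to 3.54) and 3.74 points with 4 or more U required (2.47 to 5.05). It was -2.73 points with extensions of U and A added (-4.63 to -0.830), and its interval also lay just below 0 with tracts of 25 A or fewer or without the locus with the most of these tails.

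The libraries differed by amounts that changed with the number of U. Against WT, urt1 had 2.35-fold fewer tails with 1 U, 11.4-fold fewer with 2 U and 22.5-fold fewer with 3 U (18.0 to 28.3), each per 10000 tails of the library. For 4 U it had 8.77-fold fewer (6.18 to 12.6) and for 5 U or more 4.43-fold fewer (2.25 to 8.78), the last from 19 tails in urt1 and 20 in WT. The gap between urt1 and WT was thus widest at 3 U and narrower for longer additions. Of the 49 tails with 4 U in urt1, 12 were of CRD1 and 5 of RCA, loci described below. In WT these loci gave 0 and 1 of 102, so the value for 4 U rests in part on them. Among distinct tails the factors for 1, 2, 3, 4 and 5 or more U were 1.58, 7.52, 13.9, 5.50 and 2.78.

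In xrn4 the ratio to WT rose with each class of U number. It was 0.805 for 1 U, 1.04 for 2 U, 1.52 for 3 U and 2.39 for 4 U (1.89 to 3.05). For 5 U or more it reached 14.4 (9.15 to 24.0), from 274 tails in xrn4 and 20 in WT. With identical tails counted once this last ratio was 10.1 (5.05 to 22.9), from 79 and 9 distinct tails. The interval for 2 U, 0.966 to 1.12, included a ratio of 1, so the excess in xrn4 was seen for 3 U and above.

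The double mutant stood below xrn4 in every class. Tails with 1 U were 1.40-fold fewer, those with 2 U 4.21-fold, with 3 U 6.43-fold, with 4 U 6.17-fold and with 5 U or more 6.94-fold fewer. Among distinct tails the factors in the same order were 1.22, 2.28, 3.19, 3.36 and 3.01. Against urt1 the double mutant had 5.30-fold more tails with 3 U, 3.40-fold more with 4 U and 9.20-fold more with 5 U or more (5.61 to 15.9), and these ratios were 5.67, 3.68 and 9.33 among distinct tails. Against WT it had 4.23-fold fewer tails with 3 U and 2.58-fold fewer with 4 U, but 2.08-fold more with 5 U or more (1.28 to 3.54). Among distinct tails it had 2.45-fold fewer with 3 U (2.01 to 2.99), 1.49-fold fewer with 4 U (1.005 to 2.205) and 3.35-fold more with 5 U or more (1.65 to 7.68). The double mutant was thus below WT at 3 U and above it at 5 U or more, while at 4 U the gap among distinct tails was barely larger than counting error.

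**Figure D1:**
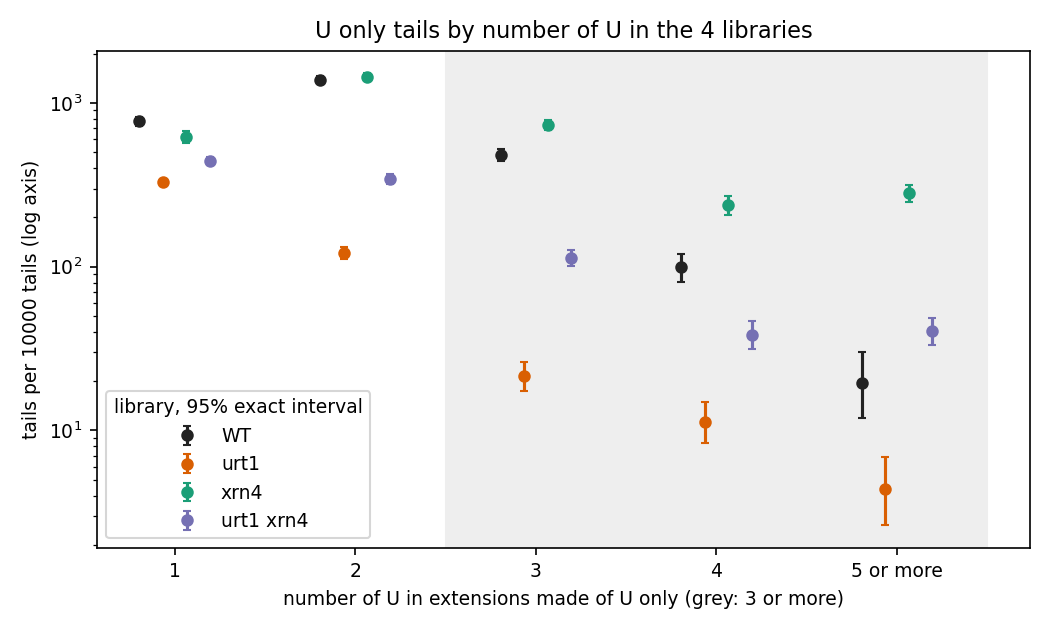
Tails with U only extensions per 10000 tails of each library (log axis) against the number of U, with exact 95% intervals for counting error; the grey area holds the tails with 3 or more U. The xrn4 library lay close to WT at 2 U and 14.4-fold above it at 5 U or more, and urt1 was lowest in every class.

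Within the tails with 3 or more U, WT was dominated by the shortest form. Exactly 3 U made up 80.3% of them for WT, 57.8% for urt1, 58.6% for xrn4 and 59.1% for urt1 xrn4. Tails with 4 U were 16.5%, 30.4%, 19.0% and 19.96%. Additions of 5 U or more made up 3.24% in WT (1.99 to 4.95%), 11.8% in urt1 (7.26 to 17.8%), 22.4% in xrn4 (20.1 to 24.9%) and 20.9% in urt1 xrn4 (17.5 to 24.8%). With every tail counted, the intervals of xrn4 and urt1 xrn4 overlapped, whereas the WT interval lay below those of the 3 mutants. Among distinct tails the shares with 5 U or more were 3.15%, 11.4%, 18.3% and 19.4%. The WT and urt1 values then rested on only 9 and 10 tails, and no interval was computed for them.

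The mean number of U was 3.28 ± 0.772 for WT, 3.62 ± 0.901 for urt1, 3.87 ± 1.503 for xrn4 and 3.85 ± 1.38 for urt1 xrn4 (SD over the tails of 1 library). Over distinct tails the means were 3.28, 3.60, 3.82 and 3.81. The xrn4 and urt1 xrn4 libraries were thus alike in mean U number among these tails while their abundance differed. The tails with 3 or more U held 35.7% of all uridines in U only extensions for WT, 19.1% for urt1, 57.9% for xrn4 and 39.6% for urt1 xrn4.

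**Figure D2:**
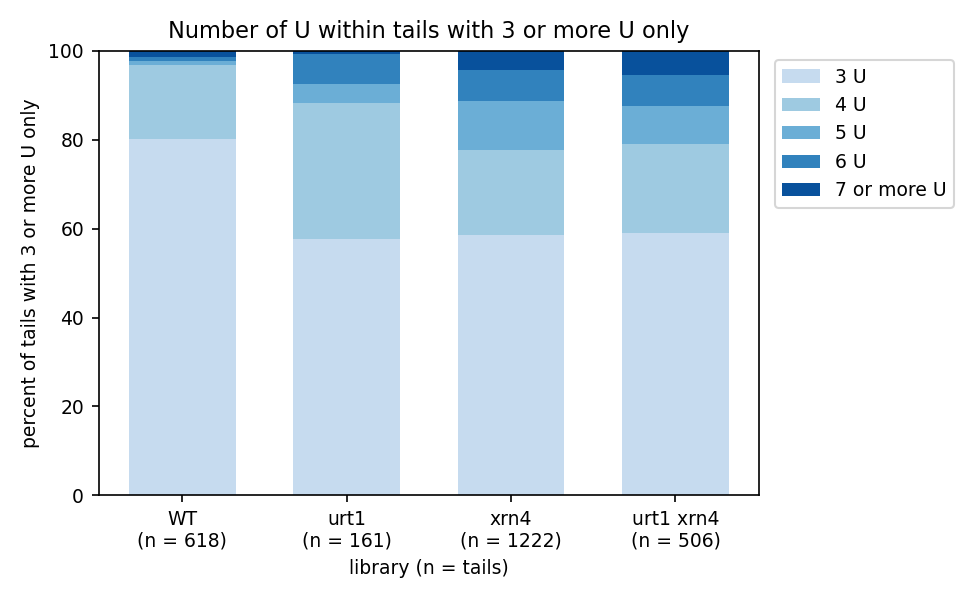
Percent of the tails with 3 or more U (vertical axis) that had 3, 4, 5, 6 or 7 or more U in each library, with the number of tails under each bar. Exactly 3 U made up 80.3% in WT and between 57.8% and 59.1% in the 3 mutant libraries.

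Additions of 10 U or more were rare. There were 2 in WT, both of AT1G62030, 11 in xrn4 and 3 in urt1 xrn4. In urt1 there were 0 among 161 tails, which allows a share of up to 1.86%. The following loci were picked after their values were seen, for the length of the addition. In xrn4, 6 of these 11 tails belonged to MUR1, an enzyme of GDP-fucose synthesis, with 14 to 16 U on 4 or 5 A. The longest, 18 U on 4 A, belonged to the auxin efflux carrier PIN3. The other 4 belonged to LHB1B2, a light-harvesting protein of photosystem II, with 11 U on 16 to 20 A. In urt1 xrn4 they were 2 identical tails of AT1G68490 and 1 of RCA, each with 11 U.

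The tails with 3 or more U had shorter A tracts than the other tails of their library. Their median A tract was 11 nt in WT (11 to 12), 9 nt in urt1 (9 to 11), 10 nt in xrn4 (10 to 10) and 8 nt in urt1 xrn4 (8 to 9). Unmodified tails had medians of 17, 16, 16 and 16 nt in the same order. Just outside the rule, tails with 2 U had medians of 13, 10, 12 and 11 nt, and tails with 1 U had medians of 14, 13, 14 and 11 nt. The A tract was thus shorter with 3 or more U than with 2 U in each library, by 1 to 3 nt at the median. In urt1 that step was from 10 to 9 nt, and over distinct tails both medians were 11 nt.

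Very short tracts were frequent among these tails, with the highest shares in the libraries that carry the urt1-1 allele. Tracts under 10 A made up 30.9% of the tails with 3 or more U for WT, 50.3% for urt1, 46.7% for xrn4 and 56.3% for urt1 xrn4, against 13.2%, 16.7%, 18.7% and 19.9% of unmodified tails. Tracts of exactly 4 A made up 3.88%, 19.9%, 9.25% and 15.2%. Among distinct tails with 3 or more U, tracts under 10 A made up 24.8%, 44.3%, 40.0% and 44.8%. Among tails with 2 U, tracts under 10 A made up 16.8%, 45.5%, 25.3% and 38.6%. Tracts of exactly 4 A made up 2.03%, 17.0%, 3.75% and 13.0% of the 2 U tails. The higher shares in the libraries with the urt1-1 allele were thus also seen with 2 U. With 5 U or more the median A tract was 8 nt in WT, 5 nt in urt1, 8 nt in xrn4 and 7 nt in urt1 xrn4, against 12, 9, 10 and 8 nt with exactly 3 U. Over distinct tails these medians were 8, 8, 8 and 10 nt against 13, 10, 11 and 10 nt, so in urt1 xrn4 both were 10 nt. The length of A and U together had a median of 15, 13, 14 and 13 nt, so these tails stayed shorter than the unmodified ones also with their uridines included.

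**Figure D3:**
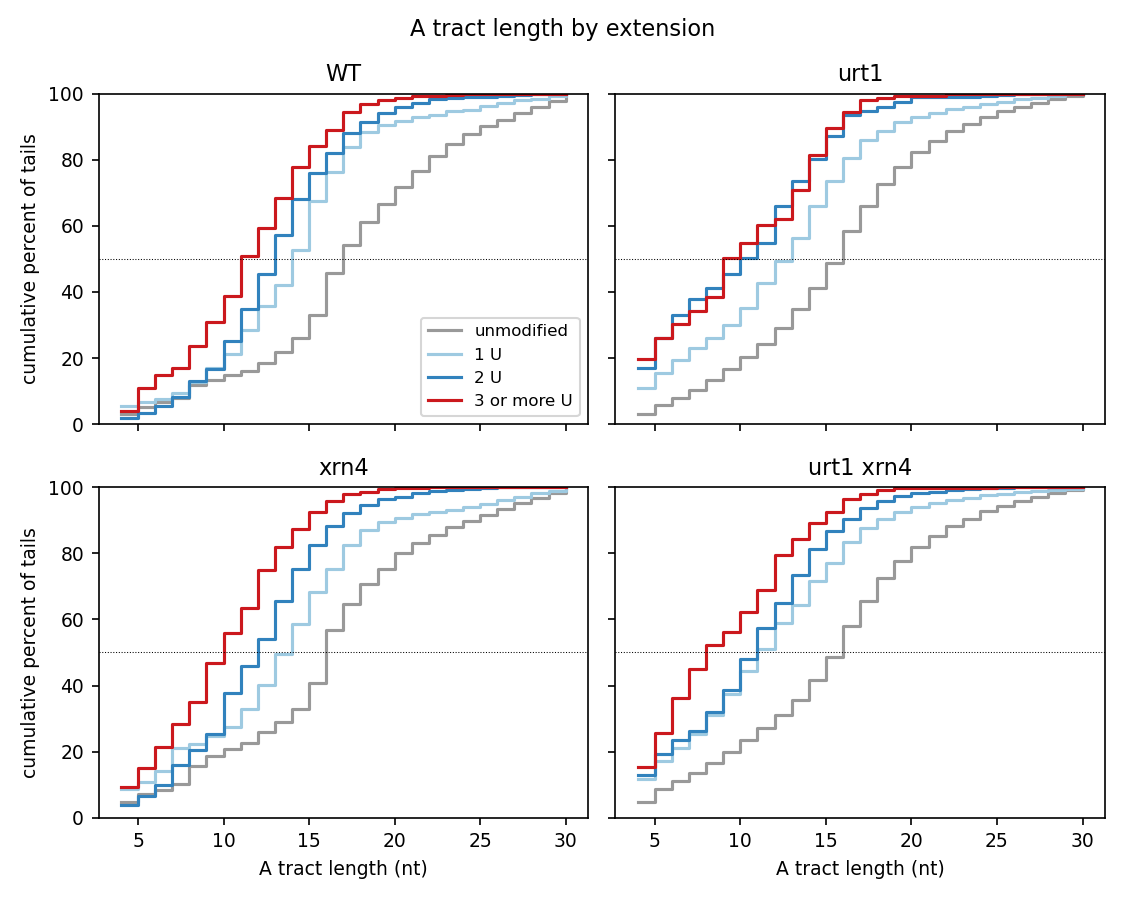
Cumulative percent of tails (vertical axis) with an A tract up to the length on the horizontal axis (nt), for unmodified tails and tails with 1, 2 or 3 or more U in each library; the dotted line marks the median. The curve for 3 or more U reached the median at 11 nt in WT, 9 nt in urt1, 10 nt in xrn4 and 8 nt in urt1 xrn4, before the unmodified curve at 16 or 17 nt.

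Read the other way, U only extensions reached 3 U more often on short tracts. On tracts of 4 to 9 A the share with 3 or more U was 33.8% for WT, 10.8% for urt1, 52.9% for xrn4 and 26.7% for urt1 xrn4. On tracts of 10 to 25 A it was 19.1%, 6.04%, 30.6% and 14.9%. On tracts of 26 to 30 A there was 1 such tail among 43 with U only in WT, and 0 among 39, 37 and 25 in urt1, xrn4 and urt1 xrn4. The order of the libraries, xrn4 over WT over urt1 xrn4 over urt1, was the same on the short and the middle tracts. For WT and urt1 xrn4 the intervals were 29.9 to 37.9% and 24.0 to 29.4% on short tracts. On middle tracts they were 17.5 to 20.8% and 13.1 to 16.8%. Every tail was counted here, whereas over all tracts the order of WT and urt1 xrn4 was not resolved and changed with the setting.

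The share was not even across the short tracts. In WT it was 24.5% at 4 A and 60.6% at 5 A (43 of 71 tails). In xrn4 it was highest at 9 A with 63.0% (143 of 227), and in urt1 xrn4 at 6 A with 39.1% (54 of 138). In urt1 the highest was 19.8% at 9 A (19 of 96). As a share of all tails of that A length, 3 or more U reached 17.9% at 11 A in WT, 33.3% at 9 A in xrn4, 6.82% at 6 A in urt1 xrn4 and 1.42% at 4 A in urt1. These peaks were read off after the values were seen, and identical tails of single loci enter them.

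**Figure D4:**
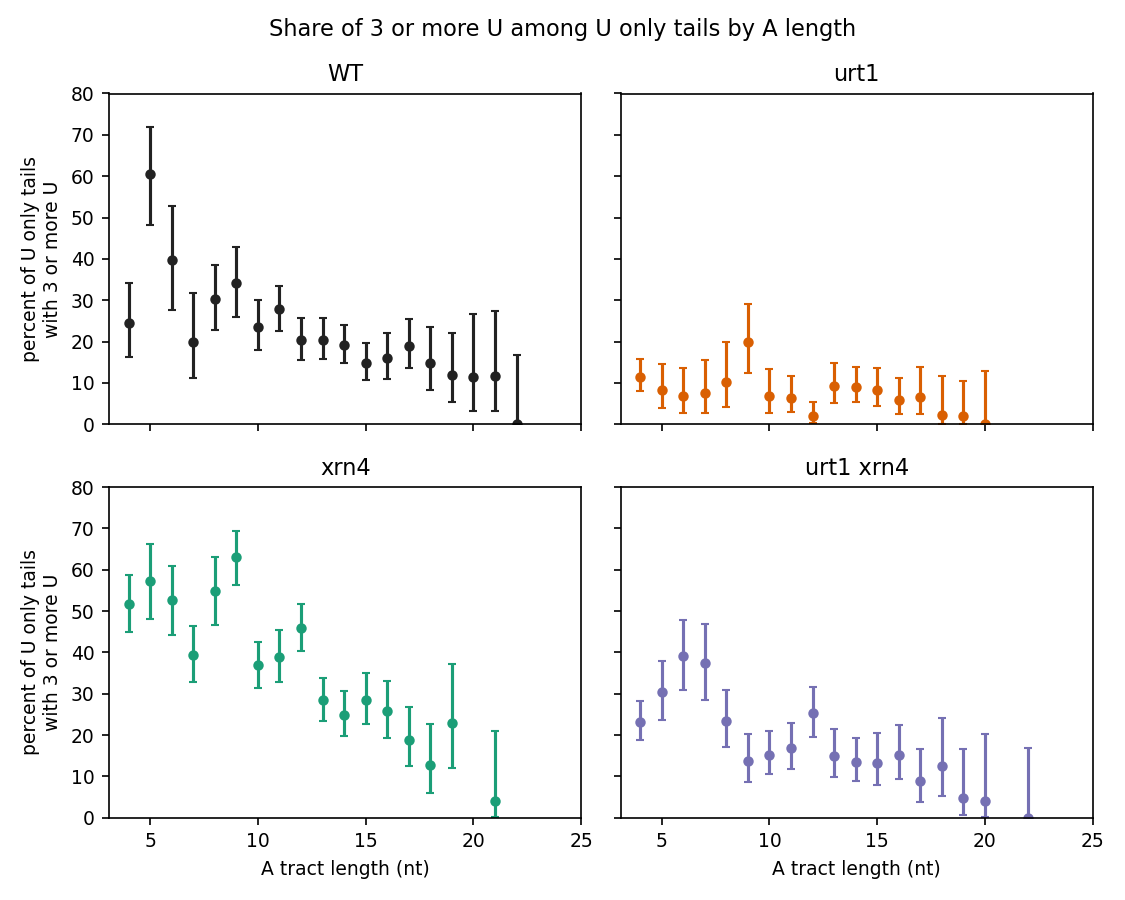
Percent of U only tails that had 3 or more U (vertical axis) at each A tract length (nt) with at least 20 U only tails, with exact 95% intervals for counting error. The xrn4 values lay above 36% from 4 to 12 A and fell on longer tracts, and the urt1 values stayed under 20% throughout.

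The comparison with unmodified tails could be made within single loci only in part. Of the loci with a tail of 3 or more U, 55 of 179 in WT, 41 of 58 in urt1, 87 of 277 in xrn4 and 130 of 263 in urt1 xrn4 also had an unmodified tail in the same library. The median A tract was shorter with 3 or more U in 46, 32, 69 and 93 of these loci. The median difference per locus was -5, -6.5, -4 and -5 nt. With 2 U, the A tract was shorter than in unmodified tails in 129 of 167, 124 of 163, 93 of 129 and 174 of 246 loci. The median differences were then -4, -5, -5 and -3.25 nt, so a shorter tract within a locus was not particular to 3 or more U. Conversely, all tails of the locus had 3 or more U in 98, 17, 149 and 115 loci, most of which had few tails: 23, 1, 51 and 8 of them had at least 5. These were 54.7%, 29.3%, 53.8% and 43.7% of the loci with such a tail. Loci with only 2 U tails made up 46.0%, 17.1%, 45.3% and 38.9% of those with a 2 U tail.

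To ask whether the letters of a tail stand in the genome, they were searched in the annotated gene's last 500 bases and in the 200 bases after it, on the strand of the gene. With at least 8 A, none of 246, 61, 325 and 212 distinct tails in WT, urt1, xrn4 and urt1 xrn4 had its letters in that window of its own locus. Over all loci searched, only 0.073%, 0.068%, 0.070% and 0.077% held the same letters. A match was thus rare for any locus, and its absence in these numbers of tails tells little. With 4 to 7 A, the letters were found for 4 of 38, 2 of 27, 4 of 105 and 5 of 98. Over all 8310 loci searched, 5.74%, 8.43%, 4.90% and 4.76% held the same letters. A match is a description only; the shares found for the short forms lay near those over all loci, apart from WT with 10.5%.

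The tails with 3 or more U were spread over 679 loci. There were 179 for WT, 58 for urt1, 277 for xrn4 and 263 for urt1 xrn4, which is 21.7%, 6.90%, 36.8% and 24.9% of the loci that had any U only tail there. Tails per locus averaged 3.45, 2.78, 4.41 and 1.92, with identical tails counted each time. Of these tails 332, 73, 790 and 196 were repeats of another. The distinct tails on the 179, 58, 277 and 263 loci were 286, 88, 432 and 310, so much of the spread in the averages came from repeats. In urt1 xrn4, 169 of 263 loci had a single such tail, against 68 of 277 in xrn4. The 10 loci with the most held 14.9% of the tails for WT, 46.0% for urt1, 10.6% for xrn4 and 15.2% for urt1 xrn4. These 10 loci were 10 of only 58 in urt1 and 10 of 277 in xrn4, so the shares are not on one footing.

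Most loci were seen in a single library. Of the 679, 595 had a tail with 3 or more U in 1 library, 73 in 2, 8 in 3 and 3 in all 4. The 87.6% seen in 1 library stand beside 84.4% of the 1134 loci with a 2 U tail, 81.4% of the 1400 with a 1 U tail and 52.3% of the 8346 with any tail, so the share was near that of the other U only tails. The xrn4 and urt1 xrn4 libraries shared 49 loci, 17.7% of the first list and 18.6% of the second. WT and urt1 shared 4 loci, 2.23% and 6.90%. WT shared 22 with xrn4 (12.3% and 7.94%) and 17 with urt1 xrn4 (9.50% and 6.46%). The urt1 list shared 14 with xrn4 (24.1% and 5.05%) and 9 with urt1 xrn4 (15.5% and 3.42%). The overlap of all loci with a tail was not counted for these pairs, so no relation between libraries is read from them. Over all loci of the table the median number of tails per locus was 1 to 3 per library, and the lists differ in length and depth, so a locus missing from a list may not have been sampled there.

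The locus with the most of these tails was RCA (AT2G39730), which encodes rubisco activase, the chaperone that keeps the carbon-fixing enzyme active. It had 13 among 174 tails in WT, 16 among 339 in urt1, 12 among 174 in xrn4 and 7 among 118 in urt1 xrn4. These are 7.47% (4.04 to 12.4%), 4.72% (2.72 to 7.55%), 6.90% (3.61 to 11.7%) and 5.93% (2.42 to 11.8%) of its tails. All 4 intervals overlapped, as they did for CRD1 and CAB1, and at these depths overlap does not show that the shares were alike. Of its U only tails, 29.5%, 21.1%, 26.7% and 35.0% reached 3 U. The median A tract of its tails with 3 or more U was 13, 14.5, 16 and 16 nt, against 17, 15, 12 and 16 nt for its unmodified tails. RCA thus had a shorter median tract with 3 or more U in WT, one close to the unmodified tails in urt1, a longer one in xrn4 and an equal one in urt1 xrn4, unlike the pattern over all loci. The most frequent form of RCA in each library and its longest addition in urt1 xrn4 are shown, since this locus had the most of these tails.
RCA in WT, most frequent: aaaaaaaaaaaTTT
RCA in urt1, most frequent: aaaaaaaaaaaaaaTTT
RCA in xrn4, most frequent: aaaaaaaaaaaaaaaaTTT
RCA in urt1 xrn4, most frequent: aaaaaaaaaaaaaaaaTTT
RCA in urt1 xrn4, most U: aaaaaaaaaaaaaaaaTTTTTTTTTTT

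CRD1 (AT3G56940), a diiron enzyme of chlorophyll synthesis, came second. It had 0 among 51 tails in WT, 15 among 353 in urt1, 4 among 30 in xrn4 and 15 among 139 in urt1 xrn4. In urt1, 12 of its 15 tails had 4 U, and the most frequent form, found 5 times, is shown for its long A tract. The most frequent form in urt1 xrn4, also found 5 times, is shown beside it and had 8 A and 5 U.
CRD1 in urt1, most frequent: aaaaaaaaaaaaaaaTTTT
CRD1 in urt1 xrn4, most frequent: aaaaaaaaTTTTT

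RCA and CRD1 together gave 31 of the 161 tails in urt1, or 19.3%, and 29 of these 31 had at least 12 A. They gave 2.10%, 1.31% and 4.35% of the tails in WT, xrn4 and urt1 xrn4. Without both, an omission chosen after their values were seen, the share of all tails in urt1 was 0.304% in place of 0.371%, and tracts under 10 A rose from 50.3% to 60.8% of the urt1 tails. The shares in WT, xrn4 and urt1 xrn4 were then 6.003%, 12.6% and 1.86%.

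Of the light-harvesting genes of photosystem II, LHCB2.2 (AT2G05070) had 14 among 103 tails in WT, 0 among 393 in urt1, 10 among 76 in xrn4 and 7 among 204 in urt1 xrn4. The count of 0 in urt1 allows a share of up to 0.763%, and the exact interval in WT began at 7.63%. LHCB2.1 (AT2G05100) had 3 among 63, 1 among 176, 5 among 44 and 1 among 120, and all 5 in xrn4 had 5 U. CAB1 (AT1G29930) had 1 among 68, 7 among 420, 3 among 95 and 6 among 159. CAB1 belongs to a family of near-identical copies that can share reads, as LHCB2.1 and LHCB2.2 may, so the split between such copies is uncertain. RCA, LHCB2.1 and CAB1 were the 3 loci with these tails in all 4 libraries.

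**Figure D5:**
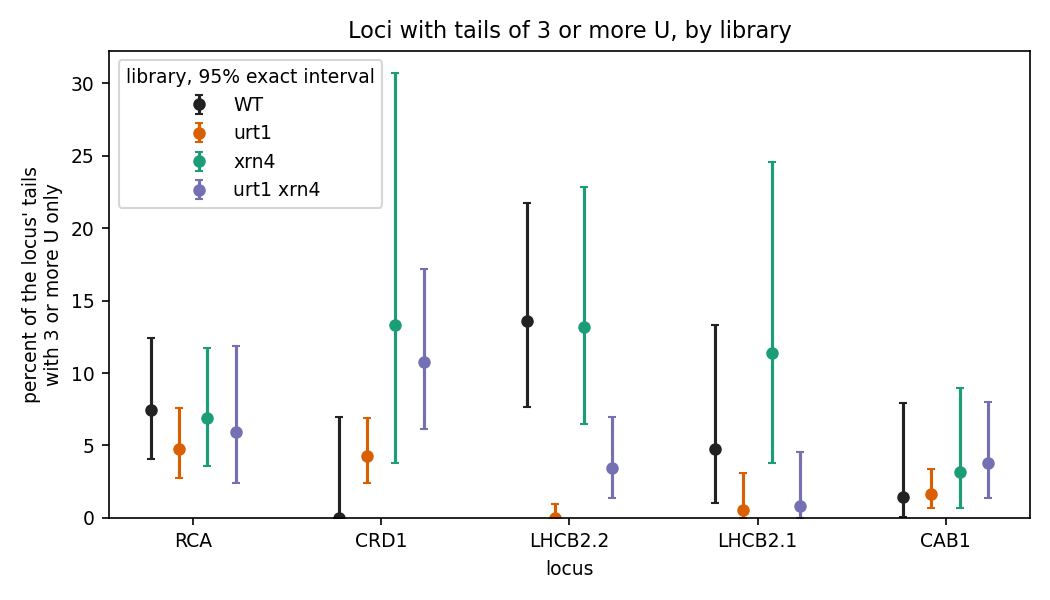
Percent of the tails of 5 loci that had 3 or more U only (vertical axis), by library, with exact 95% intervals for counting error. The 4 intervals overlapped for RCA, CRD1 and CAB1, and LHCB2.2 had 0 among 393 tails in urt1 against 14 among 103 in WT.

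Few loci were deep enough to be compared one by one. With at least 10 U only tails in both libraries, 8 loci could be compared between xrn4 and WT: the share with 3 or more U was higher in xrn4 in 5, lower in 2 and equal in 1, and the interval of the difference lay above 0 for 4. These 4 had none in WT. They were emb2386 (AT1G02780), a ribosomal protein of the large subunit, with 14 of 16 U only tails in xrn4 against 0 of 16, AT3G56360 with 13 of 30 against 0 of 20, the wound-responsive family protein AT4G28240 with 9 of 25 against 0 of 23, and the aldolase FBA2 (AT4G38970) with 6 of 22 against 0 of 13. The 14 tails of emb2386 were only 2 distinct forms, and those of AT3G56360, AT4G28240 and FBA2 were 3 distinct forms each.

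Between urt1 and WT, 7 loci could be compared, with the share lower in urt1 in 4, higher in 1 and equal in 2. The interval lay below 0 for LHCB2.2 and for the catalase CAT2 (AT4G35090), which had 5 of 14 in WT and 0 of 14 in urt1. The 14 tails of LHCB2.2 in WT were 7 distinct forms. The 1 locus higher in urt1 was FBA1 (AT2G21330), a fructose-bisphosphate aldolase, with 8 of 15 against 5 of 17, but those 8 tails were 2 distinct forms. Between urt1 xrn4 and xrn4, 8 loci gave 3 higher and 5 lower, with every interval including 0. Between urt1 xrn4 and urt1, 12 loci gave 7 higher, 3 lower and 2 equal; the interval lay above 0 for LHCB2.2 and CAB3, whose 7 tails were 2 distinct forms, and below 0 for FBA1. For urt1 xrn4 against WT, 7 loci gave 3 higher, 3 lower and 1 equal, and the interval lay below 0 for FBA1, with 0 of 19 against 5 of 17. Those 5 tails were 2 distinct forms.

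Several other loci at the head of the lists had few tails in all. In WT all 11 tails of BZIP60, a transcription factor of the unfolded protein response, had 3 U, in 2 distinct forms. In xrn4 14 of 16 tails of GSA2, an enzyme of tetrapyrrole synthesis, had 3 or more U, as did all 13 of EMB3126, a ribosomal protein of the L1 family, and all 13 of AT2G44130, a kelch-repeat protein. In urt1 xrn4 all 7 tails of ICE1, a transcription factor of the cold response, were the same tail with 5 U on 4 A. In these loci the number of distinct forms was 1 to 6, and how many molecules lay behind the tails was not measured.

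Loci were also grouped by the text of their annotated product. Among photosystem and light-harvesting genes, 16.9%, 5.19%, 25.4% and 18.8% of U only tails had 3 or more U in WT, urt1, xrn4 and urt1 xrn4, beside 21.8%, 7.63%, 37.7% and 19.7% over all loci. The words searched missed CAB2, LHCA1 and LHCA3, whose products are spelled differently, so this group does not hold all light-harvesting genes. Calvin cycle genes were taken by enzyme name, so RCA and also the glycolytic GAPC1 and GAPC2 were counted among them. GAPC2 held 4 of the group's 23 tails with 3 or more U in WT. The Calvin cycle group gave 20.7%, 14.7%, 22.2% and 14.3%. Their range across the libraries was narrower than that over all loci, and the urt1 value rested on 2 loci.

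Ribosomal protein genes, of the cytosol and the organelles together, gave 14 of 161 U only tails in WT (8.70%), 3 of 141 in urt1 (2.13%), 96 of 252 in xrn4 (38.1%) and 13 of 207 in urt1 xrn4 (6.28%). They were below the value over all loci in WT, urt1 and urt1 xrn4 and close to it in xrn4. The 96 tails in xrn4 came from 18 loci and were 32 distinct forms. Translation elongation genes gave 11 of 30, 1 of 45, 15 of 44 and 2 of 40. The 11 tails in WT came from 2 loci in 5 distinct forms, and the 15 in xrn4 from 3 loci in 4 distinct forms. Heat shock and chaperone genes gave 7 of 40, 3 of 25, 3 of 35 and 17 of 43. The 17 tails in urt1 xrn4 came from 6 loci and were 6 distinct forms, those of the other libraries were 1 or 2 distinct forms, and the intervals of WT and urt1 overlapped that of urt1 xrn4.

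Genes with ubiquitin in their name gave 1 of 14, 0 of 19, 13 of 19 and 10 of 40. The 13 tails in xrn4 came from 3 loci in 4 distinct forms, and the 10 in urt1 xrn4 from 5 loci in 6 distinct forms. The xrn4 share of 68.4%, beside 37.7% over all loci, thus rested on a few repeated tails. Aquaporins gave 3 of 34, 0 of 41, 0 of 7 and 5 of 44. Lipid transfer genes had none among 9, 4, 11 and 6 U only tails, too few to show a share near that of all loci with any precision. Of 16 genes of mRNA decay and tail metabolism, 9 had a tail in the table, 56 tails in all, of which 4 had U only and 0 had 3 or more U, beside 2.79% over all tails of the table. A set of 56 tails is too small to tell these apart. URT1, HESO1, a second uridylyltransferase known from small RNA turnover, and XRN4 had no tail in the table, so the mutated genes could not be checked against the labels.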

How the data were processed

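Each line of the deposited table is a read. The columns, named per the file headers, hold the genotype, the A tract length and the length of the added bases in nucleotides, the added bases themselves, a category and the locus; these are lengths and letters, not normalised values. Per the submitters' processing notes, CASAVA 1.8.2, TopHat2 2.0.9, Bowtie2, bedtools 2.17.5 and TAIR10 were used; their roles, the read filters and the reason for the range of 4 to 30 A are not given in the sources used here. Totals are therefore those of short tails, not library depth. The genotype written UX was taken as urt1 xrn4, because the remaining 3 names match the titles of the remaining libraries.

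Tails were selected in Python 3.11.15 (pandas 2.3.3, numpy 2.4.6). The stated sizes fitted the bases on all 89792 lines, and each read identifier was unique. Shares have exact Clopper-Pearson intervals, differences Newcombe intervals, ratios exact conditional binomial intervals and medians order-statistic intervals, all at 95% (scipy 1.17.1); where a count was 0, the limit given is 3 counts over the total. Plots used matplotlib 3.10.9. The steps were tested on simulated data. Symbols and products came from RefSeq's TAIR10.1 annotation, matched for 8310 of 8346 loci; no coordinates are printed. The letter search used the same assembly.

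Named loci were the 10 with the most of these tails per library, those with such tails in all 4 libraries, and those with at least 10 U only tails in both libraries of a pair. Not all of them are described. The tails, gene groups and lists were chosen with earlier results of these data known. Alternatives counted identical tails once, limited A to 25 nt, required 4 U or added extensions of U and A. Others dropped each library's own locus with the most tails, or kept loci with U only tails in both libraries. The dropped loci were LHCB2.2 in WT, RCA in urt1, emb2386 (tied with GSA2) in xrn4 and CRD1 in urt1 xrn4.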

Additional observations from a re-analysis of the deposited data

How the results depend on the processing

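Across 9 alternatives, 122 values were recomputed: 87 moved within counting error, 32 moved further and 3 changed sign. Single lanes and the omission of RCA and CRD1, both chosen after seeing the data, moved none beyond it. Nor did tracts of 25 A or fewer or the omission of each library's own locus with the most tails. Differences are in percentage points.

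With identical tails counted once, the differences in share of all tails were -3.90 for urt1 minus WT, 3.19 for xrn4 minus WT, -1.97 for urt1 xrn4 minus WT, -5.16 for urt1 xrn4 minus xrn4 and 1.93 for urt1 xrn4 minus urt1. In share of U only tails, xrn4 minus WT was 12.7, urt1 xrn4 minus xrn4 was -11.9, and urt1 xrn4 minus WT changed sign to 0.804. Median A became 11 nt in xrn4 and 10 nt in urt1 xrn4.

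Requiring 4 or more U, the differences in share of all tails, in the same order, were -1.03, 3.98, -0.397, -4.38 and 0.630, smaller by construction. In share of U only tails they were -1.07 for urt1 minus WT (-2.12 to 0.015), 11.3 for xrn4 minus WT, 3.74 (2.47 to 5.05) for urt1 xrn4 minus WT, which changed sign, -7.56 for urt1 xrn4 minus xrn4 and 4.82 for urt1 xrn4 minus urt1. Median A was 10 nt in WT and 9 nt in xrn4.

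Adding extensions of U and A with 3 or more U gave, in share of all tails, -6.12 for urt1 minus WT, 7.45 for xrn4 minus WT, -11.7 for urt1 xrn4 minus xrn4 and 1.87 for urt1 xrn4 minus urt1; in share of U only tails urt1 xrn4 minus urt1 was 9.77.

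Over loci with a U only tail in both libraries, the 5 differences in share of all tails were -3.57, 7.58, -2.74, -12.9 and 1.11. In share of U only tails urt1 minus WT was -6.90, urt1 xrn4 minus urt1 was 6.89, and urt1 xrn4 minus WT changed sign to 1.76. The interval of urt1 xrn4 minus WT in share of U only tails excluded 0 below in several settings. These were tracts of 25 A or fewer (-4.38 to -0.022) and the omission of each library's own locus with the most tails (-4.38 to -0.056). The omission of RCA and CRD1 (-4.62 to -0.280) and added extensions of U and A (-4.63 to -0.830) did so too. The cause of these changes was not tested. No paired analysis was possible because each genotype has 1 library. Depth limits most single loci, which had a median of 1 to 3 tails per library.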
